A study of Mus musculus with 12 samples.

Results

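The 51 genes described here build the primary cilium or carry Hedgehog signals through it. They were taken by symbol from a set list of intraflagellar transport, BBSome, basal body, transition zone and Hedgehog genes. The rule used no measured values, but the list was chosen with earlier results of these data known. Each of the 51 symbols matched 1 Ensembl gene of the 55487 counted per library. By role, 13 encode subunits of the transport complex IFT-B, 6 of IFT-A, 8 the BBSome or the chaperonins that assemble it, 4 small ARL GTPases or lipidated ciliary cargo, 5 basal body and satellite proteins, 10 the transition zone and 5 the Hedgehog pathway.

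The primary cilium is a single, non-motile antenna that most fibroblasts grow from a centriole when they leave the cell cycle. IFT-B trains driven by kinesin carry cargo to its tip, IFT-A trains driven by dynein bring cargo back, the BBSome hands membrane proteins to those trains, and the transition zone gates entry at the base. Mammalian Hedgehog signalling depends on this structure: the receptor PTCH1 keeps SMO out of the cilium, ligand releases SMO into it, and the GLI transcription factors are processed into activators or repressors on their way through.

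The data are RNA sequencing counts from primary mouse embryonic fibroblasts (MEF). All cultures came from E13.5 embryos with both Htt alleles floxed. HTT-deleted cells received a lentivirus for Cre recombinase and GFP, control cells a lentivirus for an H2B-eGFP fusion, and both were harvested 7 days after transduction. From each culture, RNA was taken from a purified ribosome pellet (ribosome-associated RNA) and from 1 part in 15 of the same cell suspension (total RNA), giving 4 groups of 3 libraries: HTT-deleted and control ribosome-associated RNA, and HTT-deleted and control total RNA. Per the labels, replicates are different primary cultures or separate passages, so p-values measure the spread between those. The question is whether loss of huntingtin changes transcript abundance or the share of transcripts on ribosomes.

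Gene counts summed to 16789356 to 30571501 per library. Htt was at 15.5, 10.6 and 10.7 CPM (counts scaled by TMM to a common library size) in HTT-deleted total RNA against 58.9, 45.7 and 64.5 CPM in control total RNA, and at 12.8, 5.04 and 3.98 CPM in HTT-deleted against 22.6, 20.1 and 32.0 CPM in control ribosome-associated RNA. The groups did not overlap in either fraction, and transcript from the deleted gene remained detectable in every HTT-deleted library. A pair of libraries leaned to short transcripts: the Spearman correlation of a library's deviation from its fraction with merged exon length over 10777 protein-coding genes was -0.547 in total RNA of HTT-deleted replicate 1 (0.199 to 0.407 in the 5 other total libraries) and -0.481 in ribosome-associated RNA of control replicate 1 (0.0286 to 0.160 in the others). Results are therefore also given without replicate 1. Fibroblast markers summed to 23456 to 39855.8 CPM in every library, whereas 14 markers of multiciliated cells summed to 4.96 to 11.1 CPM, with 5 to 8 of them at 0 and Foxj1, the master factor of motile cilia, at 0.124 to 0.55 CPM. Endothelial markers summed to 13.3 to 29.2 CPM and mesothelial and epithelial markers to 6.66 to 44.4 CPM. Macrophage markers were present as well, summing to 2076 to 7921 CPM in HTT-deleted and 908 to 3760 CPM in control total RNA, and to 3174 to 9485 CPM in HTT-deleted and 1362 to 5510 CPM in control ribosome-associated RNA. Of these markers, Lyz2, named after its values were seen, was higher in HTT-deleted cells in each pair and both fractions. It was at 4371, 938 and 1600 CPM in HTT-deleted against 1664, 398 and 1030 CPM in control total RNA. Other markers are not given by pair here. The part of macrophages in the values of the cilium genes was not tested. In such bulk RNA fewer cells of a type and less RNA per cell cannot be told apart.

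Genes of each ciliary class were detected in total RNA. Levels between genes are given as CPM per kilobase of annotated exon, averaged over the 6 total RNA libraries: 48 of 51 genes were above 1 and 41 lay between 1 and 10. The highest were Ift20, a small IFT-B subunit that also sits on the Golgi (39.0 ± 15.8, SD, n = 6), Smo, the transmembrane transducer of Hedgehog signals (25.9 ± 9.17), and Arl3, the GTPase that releases lipidated cargo inside the cilium (17.3 ± 5.21). The lowest were the Hedgehog genes Gli1 (0.0635 ± 0.0471) and Ptch1 (0.641 ± 0.141), followed by Rpgrip1l, a scaffold of the transition zone (0.999 ± 0.240). Ptch1 and Rpgrip1l have 14185 and 14688 bases of merged exons, so their place in the order depends on the annotated length. Of the 50 neighbouring pairs in this order, 49 overlapped over the libraries, and the exception was Ptch1 above Gli1. Median levels by class were 6.38 CPM per kilobase for IFT-B, 6.14 for the ARL group, 4.03 for Hedgehog, 3.60 for basal body and satellite, 2.58 for IFT-A, 2.06 for the transition zone and 2.02 for the BBSome group.

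Among the Hedgehog genes Smo was high and Gli1 and Ptch1, both targets of the pathway, were the lowest of the 51 per kilobase. For Ptch1 this rank depends on its long annotated exons. By mean CPM in control total RNA it was at 9.82, above Bbs10 (3.96) and Mks1 (7.97) and below others, whereas Gli1 was at 0.308. Gli1, an activator that is itself a standard target of the pathway, had 0 to 12 counts per library, at most 0.654 CPM, and stayed below the filter on low counts in each comparison of all 3 replicates, though it passed in some fits with a library or pair left out. Its 0 counts in ribosome-associated RNA of control replicate 3 allow up to 0.0980 CPM, counting error only. Ptch1, receptor and target at once, lay at 4.65 to 10.7 CPM over the 12 libraries. Smo lay at 43.0 to 218 CPM, Gli3, the main repressor in mouse, at 46.1 to 105 CPM, and Gli2, the main activator, at 11.8 to 38.8 CPM. The ligand genes Shh, Ihh and Dhh, named here for their role, reached at most 0.310, 0.396 and 0.207 CPM in any library.

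**Figure D1:**
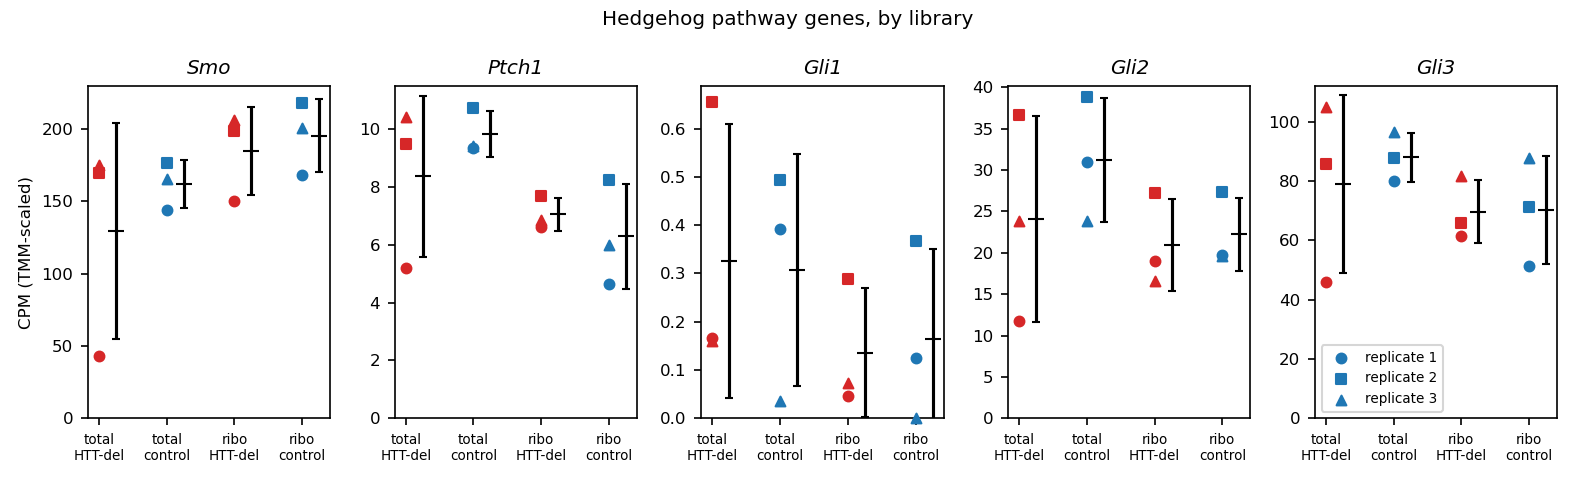
TMM-scaled CPM of the 5 Hedgehog genes in each of the 12 libraries, with HTT-deleted cells in red and control cells in blue, a marker shape per replicate, and the mean with its SD (n = 3) beside each group. In total RNA of HTT-deleted replicate 1 Smo stood at 43.0 CPM while the 11 other libraries lay at 144 CPM or above.

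Ciliary genes are known targets of RFX transcription factors, which bind the X-box. In the RefSeq promoter windows (GRCm38.p6, 250 bases before to 50 after the annotated start), 45 of the 51 genes had an entry, and the X-box motif was found on either strand in 11 of them (24.4%), against 673 of 27025 genes (2.49%). The GLI site GACCACCCA was in 0 of the 45 and in 78 of 27025 genes (0.289%), on either strand. A match is a description of these windows and says nothing about binding in these cells. The following 80-base stretches show the match in capitals. They were chosen because Mks1, Ift22 and Bbs7 differed between fractions below and Tctn2 had the smallest p for HTT deletion in pairs 2 and 3 (each 5′ to 3′ on the gene's strand).
Mks1, transition zone, chr11:87853135-87853214, plus strand: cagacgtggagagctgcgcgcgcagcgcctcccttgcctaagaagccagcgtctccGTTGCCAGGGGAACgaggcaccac
Ift22, IFT-B, chr5:136908070-136908149, plus strand: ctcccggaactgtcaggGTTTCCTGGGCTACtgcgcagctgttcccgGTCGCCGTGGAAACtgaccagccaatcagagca
Tctn2, transition zone, chr5:124598669-124598748, plus strand: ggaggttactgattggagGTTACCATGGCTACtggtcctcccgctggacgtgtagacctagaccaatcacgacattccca
Bbs7, BBSome, chr3:36613464-36613543, minus strand: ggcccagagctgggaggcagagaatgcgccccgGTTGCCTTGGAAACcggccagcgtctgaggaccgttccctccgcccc
In Mks1 and Bbs7 the letters match in both orientations, and Ift22 holds 2 separate matches, 1 on each strand.

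Deleting HTT left no cilium or Hedgehog gene past the test in total RNA. Of the 50 genes tested, 0 were called by edgeR (quasi-likelihood test, Benjamini-Hochberg adjusted p under 0.05 over all genes), where 0% of all 14759 genes were. Of the same 50, 0 reached an unadjusted p under 0.05, and the fit with the replicate number as a block called 0. DESeq2 called 0 (0.0113% of all genes), and so did edgeR with no filter on low counts (0.00375%). Htt itself missed the adjusted threshold in the filtered edgeR fit without the block (log2 fold change -2.16, SE 0.24, adjusted p = 0.812), so 0 calls does not show that these genes did not differ. The fold changes of HTT-deleted over control cells ran from -0.39 to 0.60 on the log2 scale, with a median of -0.10 (all genes 0.0129) and a median SE of 0.25.

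The 4 genes with the smallest p were Ofd1, Cluap1, Ift52 and Rpgrip1l. Ofd1, a centriole and satellite protein, was at 12.9, 15.5 and 14.8 CPM in HTT-deleted total RNA against 17.7, 19.0 and 16.3 CPM in controls. These groups did not overlap, and the log2 fold change was -0.27 (SE 0.16, adjusted p = 0.978 by edgeR). Rpgrip1l was at 7.79, 15.2 and 14.8 CPM in HTT-deleted cells against 16.4, 17.7 and 16.2 CPM in controls, again without overlap (log2 fold change -0.39, SE 0.26, adjusted p = 0.978 by edgeR). The IFT-B subunit Cluap1, at 20.4, 10.1 and 7.86 CPM in HTT-deleted cells and 8.25, 9.15 and 8.71 CPM in controls, was high in replicate 1 alone (log2 fold change 0.60, SE 0.38). Ift52, an IFT-B core subunit, was at 37.3, 35.4 and 29.1 CPM in HTT-deleted cells and 28.8, 29.6 and 29.5 CPM in controls (log2 fold change 0.25, SE 0.16), with the third HTT-deleted library inside the control range. Exons of Cluap1 and Bbs12 overlap another annotated gene on the same strand, and those of 14 of the 51 genes, Ofd1 and Cluap1 among them, overlap one on the opposite strand, so their counts are less certain.

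Most of the spread in total RNA came with replicate 1. In pair 1 the median difference over the 50 genes was -0.44 with 35 below 0, against -0.0261 and -0.0145 in pairs 2 and 3. In pairs 2 and 3 with the replicate block the median was 0.0146, the 4 Hedgehog genes lay between -0.0355 (Gli2) and 0.0539 (Gli3), and 0 of 50 genes were called (0.629% of all 14938 genes), with Tctn2 alone at an unadjusted p under 0.05 (-0.30, SE 0.12, adjusted p = 0.417 by edgeR). With all 3 pairs and no block the same 4 genes lay between -0.35 (Gli2) and -0.14 (Gli3). Across 49 genes with a coding sequence, the fold change had a Spearman correlation with coding length of -0.778 in all 3 pairs and 0.213 in pairs 2 and 3 (-0.4997 over 13094 and 0.165 over 13210 protein-coding genes). Genes share libraries, so these are descriptions.

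Smo shows how far 1 library carried a value. In total RNA it was at 43.0, 169 and 175 CPM in HTT-deleted cells against 144, 176 and 165 CPM in controls, so that replicates 2 and 3 overlapped the controls and replicate 1 lay below them. The log2 fold change was -0.31 (SE 0.47, adjusted p = 0.978 by edgeR), and it was 0.10 without HTT-deleted replicate 1. In the authors' deposited table, Smo is the only one of 50 listed genes with a false discovery rate under 0.05 in total RNA (log2 fold change -0.54, false discovery rate 0.00293), where 4.97% of 16974 genes pass, and 12 genes have a p-value under 0.05. In the authors' deposited table for ribosome-associated RNA, 0 of 50 pass (4.21% of 16235 genes), 2 have a p-value under 0.05, and the lowest false discovery rate is 0.320.

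On ribosomes, too, no cilium or Hedgehog gene passed the test for HTT deletion. In ribosome-associated RNA 0 of 50 were called by edgeR (quasi-likelihood, Benjamini-Hochberg; 0% of 14588 genes), 0 reached an unadjusted p under 0.05, and DESeq2 called 0 (0.004% of all genes). Log2 fold changes of HTT-deleted over control cells ran from -0.18 to 0.24, with a median of -0.00547 (all genes -0.00103) and a median SE of 0.15. With the replicate block, 1.69% of all genes were called (1.46% higher, 0.233% lower) and still 0 of 50, with 1 gene, the IFT-B subunit Ift172, at an unadjusted p under 0.05 (0.22, SE 0.10, adjusted p = 0.472 by edgeR). That fit had a median SE of 0.11 over the 50 genes and a range of fold changes from -0.18 to 0.23. In pairs 2 and 3 with the block 0 of 50 were called (0.0944% of all genes, 0.0741% higher and 0.0202% lower), with 0 at an unadjusted p under 0.05.

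The genes with the smallest p on ribosomes were Arl6, Ift88, Ift43 and Bbs9, each with an adjusted p of 1. Arl6, the GTPase that recruits the BBSome to membranes, was at 13.8, 14.8 and 13.2 CPM in HTT-deleted against 12.2, 12.6 and 12.5 CPM in control ribosome-associated RNA, with no overlap (log2 fold change 0.17, SE 0.11). Ift43, an IFT-A subunit, was at 20.4, 23.1 and 22.8 CPM in HTT-deleted and 25.7, 24.6 and 23.3 CPM in control cells, without overlap in the other direction (-0.14, SE 0.10). Ift88, a core IFT-B subunit, was at 0.18 (SE 0.12) and Bbs9, a BBSome subunit, at 0.20 (SE 0.14), both with overlapping groups. Smo was at 150, 199 and 206 CPM in HTT-deleted and 168, 218 and 200 CPM in control ribosome-associated RNA, so HTT-deleted replicate 1 was again the lowest library, by a smaller margin than in total RNA (log2 fold change -0.0750, SE 0.15).

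**Figure D2:**
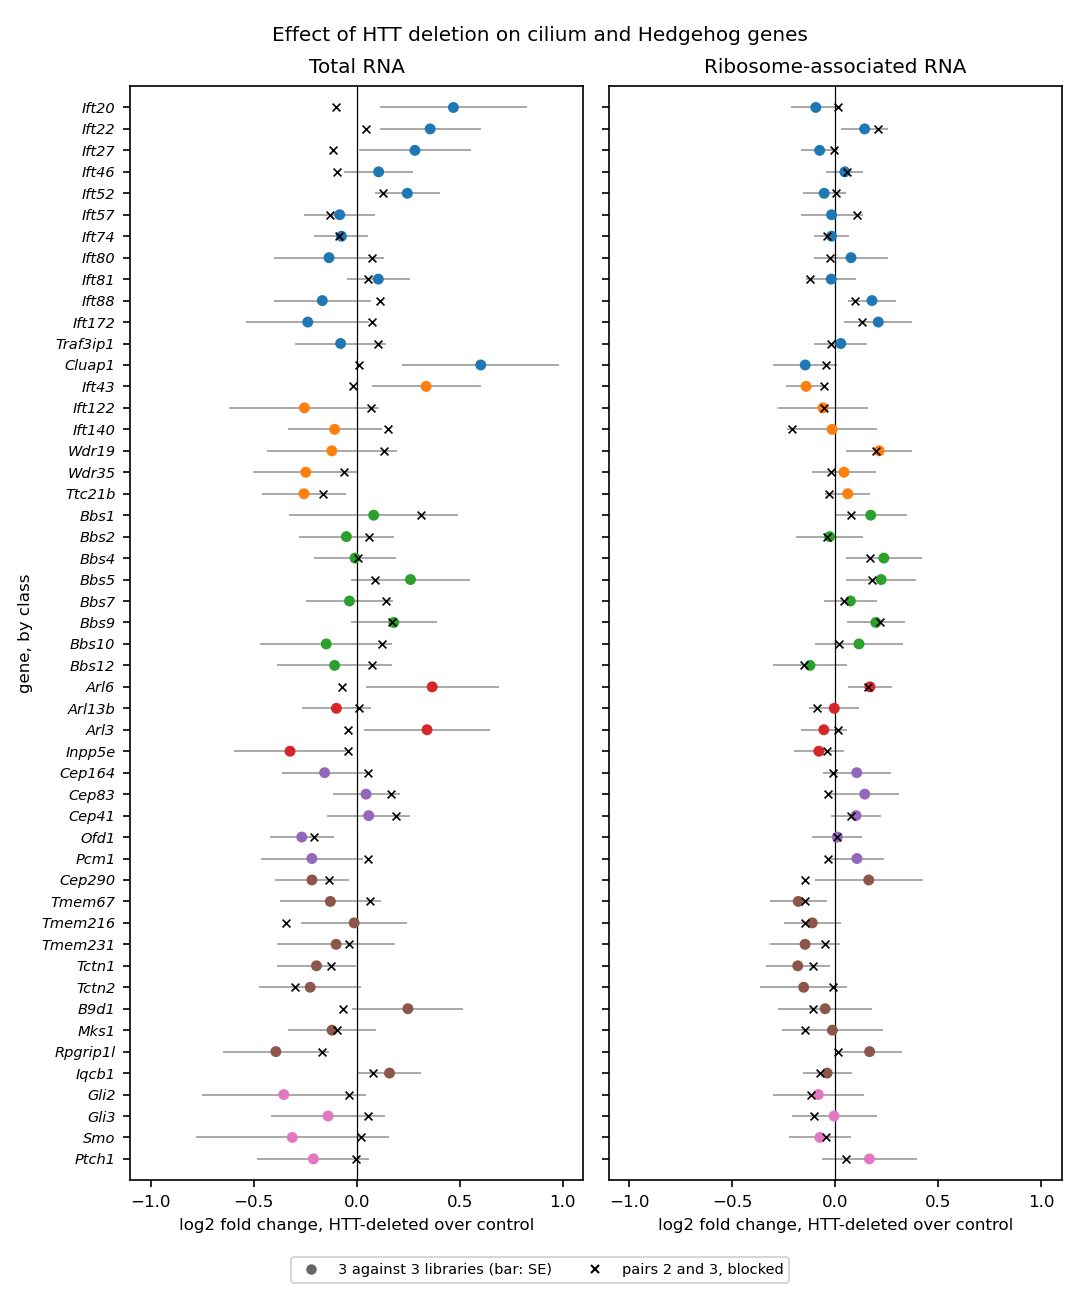
Log2 fold change of HTT-deleted over control cells for the 50 tested genes in total RNA (left) and ribosome-associated RNA (right), coloured by class, with bars of 1 SE for 3 against 3 libraries and crosses for pairs 2 and 3 with the replicate block. No gene passed the test in either fraction, and the fold changes span -0.39 to 0.60 in total RNA and -0.18 to 0.24 on ribosomes.

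The change of the ribosome-associated to total ratio with HTT deletion, tested as an interaction over all 12 libraries, was not detectable for any of the 50 genes (0 called by edgeR, quasi-likelihood with Benjamini-Hochberg adjustment, 0 of 50 at an unadjusted p under 0.05, 0 by DESeq2, 0% of 15574 genes). The smallest p belonged to Rpgrip1l (0.57, SE 0.32), Cluap1 (-0.71, SE 0.41), Ofd1 (0.30, SE 0.18) and Ift43 (-0.44, SE 0.27), each with an adjusted p of 1. The median interaction was 0.11 over the genes and -0.0149 without total RNA of HTT-deleted replicate 1. With the 6 cultures as a block it was 0.12, and in pairs 2 and 3 with that block -0.0343, again with 0 called.

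The fractions differed for more genes. They also differed in reads outside annotated features, at 6.94% to 7.73% in total and 2.64% to 3.30% in ribosome-associated libraries. The part of this in the differences between fractions was not tested. In control cells, 19 of the 50 tested genes differed between ribosome-associated and total RNA (edgeR's quasi-likelihood test, Benjamini-Hochberg): 5 were higher on ribosomes, 10% of the genes tested and 10% of all 14990, and 14 were lower, 28% against 15% of all genes. The share of higher calls is that of all genes. The median log2 fold change was -0.18, against 0.0175 over all genes. DESeq2 called 18, of which 5 were higher and 13 lower (6.52% and 9.29% of all genes). Each library mattered to the count: without control replicate 1, 2 or 3 of ribosome-associated RNA it was 8, 11 or 11, and without control replicate 1, 2 or 3 of total RNA it was 4, 5 or 6. Calls over all genes fell too, from 1499 higher and 2246 lower of 14990. Without ribosome-associated replicate 1 they were 978 and 1693 of 15628 (17.1%), and without total replicate 1 they were 385 and 1122 of 15205.

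The 5 genes that rose on ribosomes encode small proteins. Arl3 (chromosome 19, 46531096 to 46573198, minus strand, GRCm38) was at 58.1, 49.3 and 61.1 CPM in ribosome-associated RNA against 38.2, 36.0 and 41.6 CPM in total RNA of control cells. Every ribosome library lay above every total library, and the log2 fold change was 0.54 (SE 0.11, adjusted p = 0.0149 by edgeR), a 1.45-fold difference. Ift20 was at 84.6, 72.6 and 62.6 CPM on ribosomes against 49.1, 50.2 and 53.1 CPM in total RNA, also without overlap (0.52, SE 0.12, adjusted p = 0.0206 by edgeR).
Tmem216, a membrane protein of the transition zone, was at 10.8, 11.6 and 10.1 CPM on ribosomes against 6.32, 8.31 and 7.82 CPM in total RNA (0.53, SE 0.15, adjusted p = 0.0425 by edgeR). The IFT-B subunits Ift22 (0.46, SE 0.14) and Ift27 (0.33, SE 0.10), both related to small GTPases, had adjusted p of 0.0474 and 0.0435 by edgeR. In all 5 the fractions did not overlap, which the rule for naming called genes also required. The share of all genes without overlap is not given here. Tmem216 overlaps exons of Cpsf7 on the opposite strand, as Cep290, Inpp5e, Tctn1 and Ofd1 below overlap other genes, and no source used here gives the strand setting of the counting.

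The 14 genes that fell on ribosomes were led by Mks1, Cep164, Ift172 and Cep290. Mks1 (chromosome 11, 87853215 to 87863803, plus strand), a B9-domain protein of the transition zone, was at 2.73, 4.54 and 4.05 CPM in ribosome-associated RNA against 7.04, 8.75 and 8.11 CPM in total RNA. Its log2 fold change was -1.08 (SE 0.22, adjusted p = 0.0150 by edgeR), 2.11-fold lower. Cep164 (chromosome 9, 45766946 to 45828691, minus strand), the distal appendage protein that docks the basal body to membrane, was at 24.7, 31.5 and 37.1 CPM on ribosomes against 63.4, 64.2 and 58.4 CPM in total RNA.
That is a log2 fold change of -1.001 (SE 0.15, adjusted p = 0.00545 by edgeR), the smallest p of the 50. Ift172 (chromosome 5, 31253277 to 31291116, minus strand), the large peripheral IFT-B subunit, was at 18.4, 25.1 and 27.6 CPM on ribosomes against 47.1, 48.0 and 42.8 CPM in total RNA (-0.96, SE 0.15, adjusted p = 0.00666 by edgeR). Cep290, which links the transition zone membrane to its microtubules, was at 6.45, 13.3 and 12.2 CPM on ribosomes against 19.97, 17.7 and 21.3 CPM in total RNA (-0.89, SE 0.25, adjusted p = 0.0433 by edgeR). None of these 4 had overlapping fractions, which was a condition for naming them. For Cep290 replicate 1 lay furthest down.
Next came Rpgrip1l (-0.63, SE 0.15), the satellite scaffold Pcm1 (-0.63, SE 0.13) and the IFT-A subunits Wdr19 (-0.58, SE 0.14) and Wdr35 (-0.54, SE 0.14), with adjusted p of 0.0140 to 0.0307 by edgeR. The remaining 6, Tctn1, Bbs2, Ofd1, Traf3ip1, Inpp5e and Bbs7, lay between -0.53 and -0.37.

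By class, calls on control ribosomes were 3 higher and 2 lower of 13 IFT-B genes, 0 and 2 of 6 IFT-A genes, 0 and 2 of 8 in the BBSome group, 1 and 1 of 4 in the ARL group, 0 and 3 of 5 basal body and satellite genes, 1 and 4 of 10 transition zone genes, and 0 and 0 of the 4 tested Hedgehog genes. Of all 14990 genes, 10% were called higher and 15% lower in that fit. The median log2 fold changes of IFT-B and IFT-A were 0.18 and -0.40, a difference that was not tested. Coding sequences run from 396 to 5247 bases in IFT-B. In IFT-A they are 618 bases for Ift43 and 3543 to 4392 bases for the others. The part of length in this difference was not tested. With the replicate number as a block, 35 genes were called, 13 higher (26%, against 24.3% of all genes) and 22 lower (44%, against 25.9%). The Hedgehog genes then split: Smo was higher on ribosomes (0.26, SE 0.07, adjusted p = 0.00614 by edgeR), and Gli2 (-0.48, SE 0.09), Gli3 (-0.36, SE 0.09) and Ptch1 (-0.67, SE 0.14) were lower.

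Each of the 19 genes was called in the same direction in HTT-deleted cells in pairs 2 and 3 with the replicate block, and fewer or none in the other fits. In HTT-deleted cells with all 3 pairs, 0 of 50 genes were called (edgeR's quasi-likelihood test, Benjamini-Hochberg, without or with the block) against 0% higher and 0.896% lower of all 14627 genes, 3 had an unadjusted p under 0.05, and DESeq2 called 1. Smallest p were those of Mks1 (-0.96, SE 0.24, adjusted p = 0.138), Cep164 (-0.73, SE 0.24, adjusted p = 0.268), Cep290 (-0.49, SE 0.20) and the IFT-B subunit Ift74 (0.30, SE 0.13), all by edgeR. Without total RNA of replicate 1 the same test called 11, of which 2 were higher and 9 lower (7.95% and 11.9% of all 15141 genes). In pairs 2 and 3 with the block it called 36, of which 13 were higher (26%, against 27.7% of all genes) and 23 lower (46%, against 27.9%). That fit has 2 libraries per fraction and leans on variance shared across genes.

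The 5 genes higher and 14 lower in control cells were all among those 13 and 23 (38.5% and 60.9% of the lists in HTT-deleted cells), with 0 in the opposite direction. These 2 comparisons share no library. The same overlap over all genes is not given here, and the fit in HTT-deleted cells called 55.6% of all 14981 genes, so the overlap is not particular to this list. Mks1, at 3.49, 3.93 and 3.79 CPM on ribosomes against 5.85, 8.40 and 7.33 CPM in total RNA of HTT-deleted cells, was lower in all 3 cultures of that condition. Cep164 was at 31.9, 30.2 and 37.9 CPM on ribosomes against 37.9, 57.6 and 69.0 CPM in total RNA, with the smallest gap in replicate 1. Arl3 was at 50.5, 52.2 and 58.9 CPM on ribosomes against 66.8, 29.2 and 46.8 CPM in total RNA, so replicate 1 alone ran the other way.

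Read culture by culture, 5 genes were higher on ribosomes in all 6 cultures (Ift57, Ift74, Tmem216, Tmem231 and Smo) and 6 lower in all 6 (Bbs2, Cep164, Ofd1, Cep290, Tctn1 and Mks1), genes named here after their values were seen. Leaving HTT-deleted culture 1 aside, 14 were higher and 25 lower in all 5. The share of all genes with the same sign across cultures is not given here, so these counts describe the list alone. The median difference over the 50 genes was 0.24 in HTT-deleted culture 1 and between -0.32 and -0.12 in the 5 others. Smo reached 1.799 in HTT-deleted culture 1 against 0.22 to 0.31 in the 5 other cultures.

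**Figure D3:**
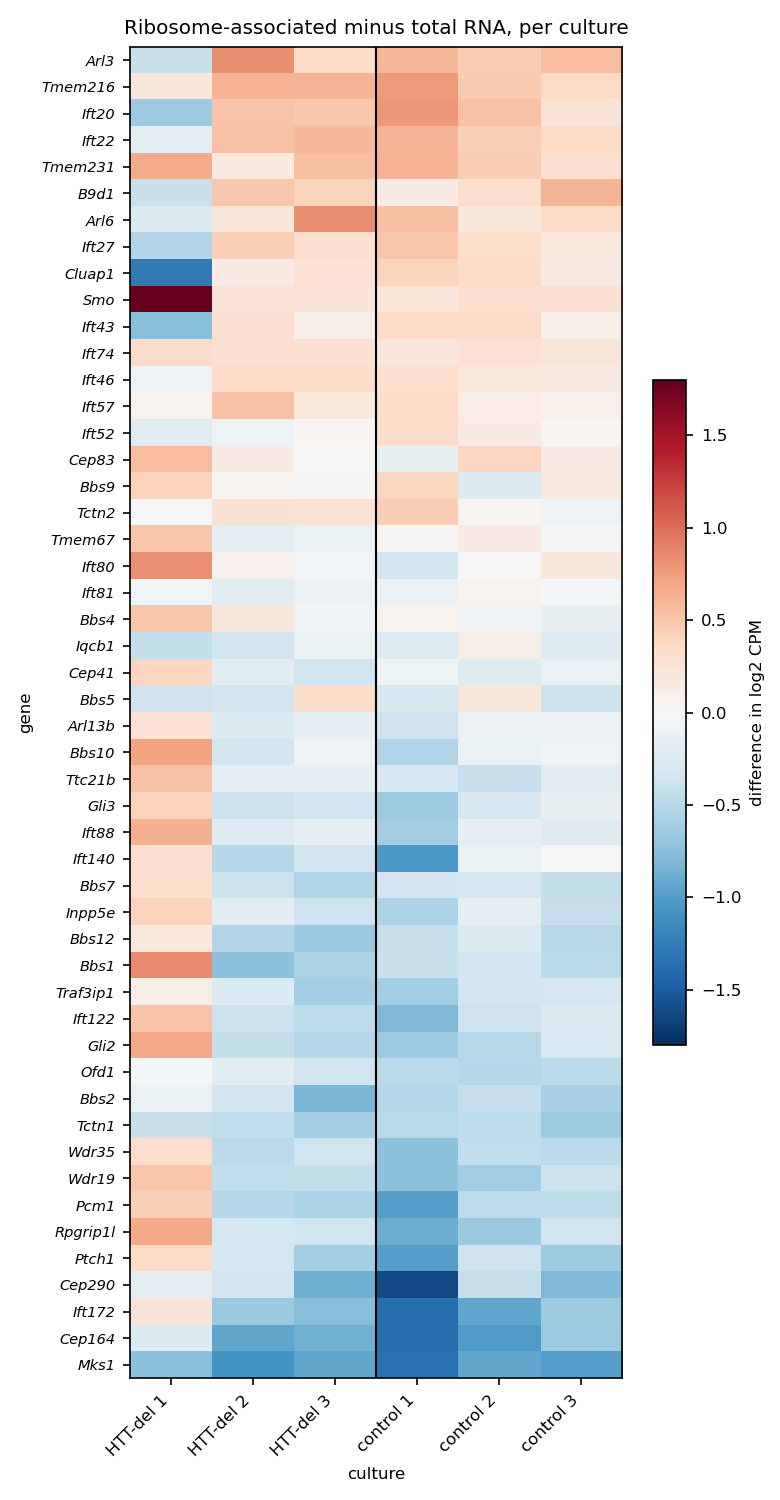
Ribosome-associated minus total RNA in log2 CPM for the 50 tested genes (rows, sorted by the fold change in control cells) in the 3 HTT-deleted and 3 control cultures (columns). Among the bottom rows Mks1, Cep164 and Cep290 are below 0 in all 6 columns, whereas Ift172 is at 0.24 in HTT-deleted culture 1, the column that departs from the 5 others.

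**Figure D4:**
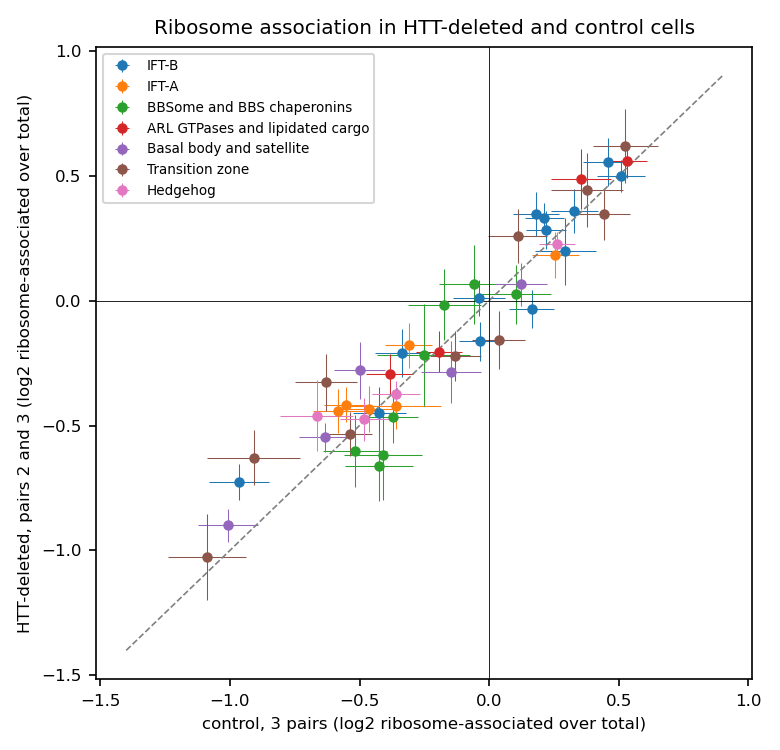
Log2 fold change of ribosome-associated over total RNA per gene in HTT-deleted cells (y axis, pairs 2 and 3) against control cells (x axis, 3 pairs), both with the replicate block, with bars of 1 SE, colours by class and the line of equality dashed. Genes run along the line from Mks1 at -1.03 and -1.09 to Tmem216 at 0.62 and 0.52.

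The called genes differed in length, a property looked at after their values were known. The 5 genes higher on control ribosomes have coding sequences of 396 to 558 bases and the 14 lower ones of 1683 to 7437 bases (medians 546 and 3300), and merged exon lengths were 1525 to 3608 and 3311 to 14688 bases. Across 49 genes the Spearman correlation of the ratio with coding length was -0.762 in control cells, against -0.649 over 13246 protein-coding genes, and -0.709 in HTT-deleted pairs 2 and 3, against -0.636 over 13279. In control cells it was -0.598 with merged exon length and -0.418 with the number of retained-intron transcripts (-0.538 and -0.268 over the protein-coding genes). These features vary together, and their separate parts were not tested. By culture, the correlation with coding length was 0.491, -0.678 and -0.703 in HTT-deleted cultures 1, 2 and 3, and -0.810, -0.757 and -0.610 in control cultures 1, 2 and 3. Total RNA of HTT-deleted replicate 1 and ribosome-associated RNA of control replicate 1 are also the libraries that leaned to short transcripts, and the part of this in the result was not tested.

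Genes of like coding length give the background for these counts, in bands chosen after the values were seen. Below 600 bases, 5 of 6 were higher on control ribosomes, where 41.7% of 1599 protein-coding genes were, and their median of 0.49 compares with 0.43. From 600 to 1500 bases 0 of 10 were called (13.2% of 5502 genes higher, 5.47% lower). From 1500 to 3000 bases 6 of 18 were lower (15.9% of 4255 genes), with a median of -0.30 against -0.11, and from 3000 bases upwards 8 of 15 were lower (45.3% of 1890 genes), with a median of -0.54 against -0.47.
Mks1 and Smo, picked after their values were seen, lay toward opposite ends of their band, and other members did as well. Of the 4255 protein-coding genes between 1500 and 3000 coding bases, 3.08% had a lower ratio than Mks1 (1683 bases) and 7.22% a higher one than Smo (2379 bases), and in HTT-deleted pairs 2 and 3 the shares were 3.33% and 10.2% of 4269. Tmem67, a transition zone membrane protein, had 3.97% of the 1890 longest genes above it in control cells, and Ift74 had 6.93% of the 4269 above it in HTT-deleted pairs 2 and 3.

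**Figure D5:**
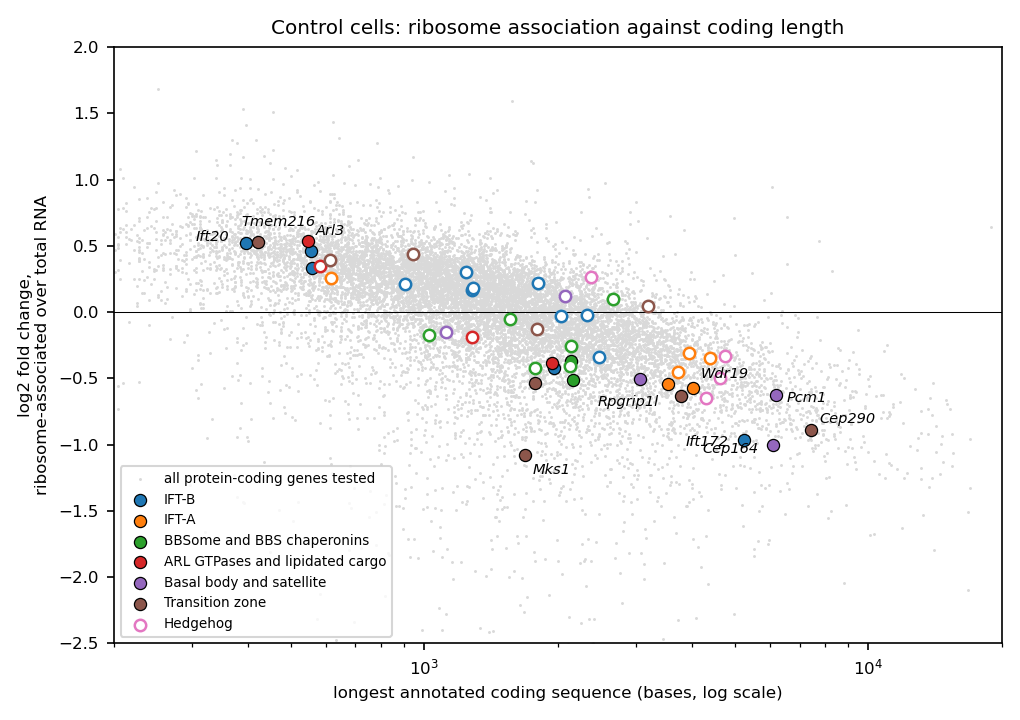
Log2 fold change of ribosome-associated over total RNA in control cells against the longest annotated coding sequence (log scale), with cilium and Hedgehog genes coloured by class (filled where called, open where not) over all 13246 protein-coding genes tested in grey. Points fall from Ift20, Tmem216 and Arl3 at about 0.5 on the left to Cep164 and Cep290 near -1 on the right. Mks1 and Smo, picked after their values were seen, lie toward opposite ends of the genes of like length. Of the 4255 genes with 1500 to 3000 coding bases, 3.08% lay below Mks1 and 7.22% above Smo.

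Other genes of the same structures, from lists of ciliary and Hedgehog genes outside the 51, were called in both directions between fractions and not for HTT deletion. Of 52 tested genes of other ciliary machinery, 5 were higher and 13 lower on control ribosomes (10% and 15% of all genes), among them Cby1, a distal appendage protein (0.74, SE 0.08), Odf2, an appendage scaffold of the mother centriole (-0.73, SE 0.08) and the centrosomal Cep350 (-1.09, SE 0.15). Of 28 other Hedgehog genes, 2 were higher and 5 lower, led by Iqce, an anchor of the EVC complex at the cilium base (-0.89, SE 0.13), the ciliary tip kinesin Kif7 (-0.78, SE 0.12) and the cyclase Adcy6 (-0.62, SE 0.10). All 4 calls among 11 genes of cilium capping and disassembly were lower: Ccp110 (-1.19, SE 0.13) and Cep97 (-0.78, SE 0.17), which cap the mother centriole, the keratin-binding Tchp (-0.71, SE 0.10) and the tubulin deacetylase Hdac6 (-0.93, SE 0.16). In both HTT comparisons and the interaction, 0 genes of these 3 lists were called by edgeR's quasi-likelihood test (Benjamini-Hochberg) without the block, and 0 of the same lists reached an unadjusted p under 0.05 in either HTT comparison. Proliferation markers, from cycling cells, which largely lack a cilium, summed to 405 to 431 CPM in HTT-deleted and 408 to 430 CPM in control total RNA.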

How the data were processed

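Per the labels' protocols, 250 ng of RNA with a quality number above 9 went into each stranded library. Per the submitters' processing notes, reads were handled with FastQC, STAR 2.7.2b, HTSeq 0.11.1 and edgeR, with GRCm38 (mm10) as the genome build. What the authors deposited for each library is a table of raw counts of reads by Ensembl gene. No source used here states the annotation release or strand setting. The authors also deposited 1 table of HTT-deleted against control cells in each fraction, holding log2 fold changes, a likelihood ratio score, p-values and false discovery rates. Its name, not its header, mentions RUVSeq and edgeR, and its direction was read from Htt, which is negative in both fractions.

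Here, the 5 summary entries per library were left out, counts were TMM-scaled and filtered with filterByExpr, and tested with edgeR 4.0.16 (R 4.3.3, quasi-likelihood, robust, Benjamini-Hochberg adjusted p under 0.05 over all genes). SE is the log2 fold change over the square root of F. CPM are TMM-scaled, log2 CPM use a prior count of 2. Exon and coding lengths, positions and overlaps came from a GENCODE annotation of GRCm38. The test was tried on simulated counts with known changes. For HTT deletion it recovered 31% of 2-fold changes in total RNA and 75% on ribosomes, and 17% for the interaction. For the fractions it recovered 18% in HTT-deleted and 77% in control cells. Of 4-fold changes it recovered 79%, 96%, 85%, 92% and 94% in the same order. Smaller changes could thus be missed. Counting error is largest for Gli1, but other genes had few counts in some libraries. The lowest were 38 for Bbs10 in HTT-deleted total RNA and 44 for Mks1 in control ribosome-associated RNA. No replicates agreed within sampling noise (chi-square per degree of freedom 35.1 to 178).

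Replicate numbers pair the samples: fractions share a suspension per the labels, and same-numbered libraries deviated together (correlations of at least 0.222 in each pair). Blocked values stand beside a result where they change calls. Alternatives were RLE scaling, DESeq2 1.42.0, filtering at 5 CPM in 3 libraries or not at all, the block, each library left out, pairs 2 and 3 with the block, and all 12 libraries in 1 fit. Named genes were the 5 Hedgehog genes, the 3 highest and 3 lowest per kilobase, up to 8 called genes in each direction whose groups do not overlap or, with none called, the 4 smallest p, and up to 4 of each other list, some of which are not reported here. The members and the lists were chosen with earlier results of these data known.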

Additional observations from a re-analysis of the deposited data

How the results depend on the processing

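The 0 calls for HTT deletion, in either fraction and as an interaction, held under each alternative run. Between fractions the count depended on the fit. In control cells 19 genes were called without the block (25% of all genes were), 35 with the replicate block (50.2%) and 32 in pairs 2 and 3 with the block (49.2%). With no filter 12 were called (14.6%), with all 12 libraries in 1 fit 5 (10.6%), and with each library left out 4 to 11. In HTT-deleted cells 0 were called without the block (0.896% of all genes were), 1 by DESeq2 (2.99%) and 1 with all 12 libraries (7.29%). In pairs 2 and 3 with the replicate block 36 were called (55.6%). With each library left out it was 0 to 11, the 11 coming without total RNA of replicate 1 (19.9%). The cause of these differences was not tested.

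Among the named genes, direction turned for Hedgehog genes, none of them past the test in the fit that turned. For the fractions in HTT-deleted cells Gli2 and Gli3 were called lower in pairs 2 and 3 with the block. In total RNA, Gli3 was at 0.0539 and Smo at 0.0199 in pairs 2 and 3 with the block. On ribosomes Gli3 was at 0.0138 with the replicate block. The interaction in pairs 2 and 3 with the block was -0.0848 for Gli2, -0.16 for Gli3 and -0.0635 for Smo. With each library left out, the ranges that crossed 0 were -0.38 to 0.13 (Gli3), -0.38 to 0.0307 (Ptch1) and -0.58 to 0.10 (Smo) for HTT deletion in total RNA, -0.31 to 0.0915 (Gli2), -0.18 to 0.19 (Gli3), -0.000514 to 0.40 (Ptch1) and -0.17 to 0.0532 (Smo) on ribosomes, -0.54 to 0.23 (Gli2) and -0.46 to 0.0748 (Gli3) for the fractions in HTT-deleted cells, and -0.0322 to 0.72 (Gli2), -0.11 to 0.40 (Gli3) and -0.16 to 0.52 (Smo) for the interaction. The cause was not tested. Of the genes the naming rule took for a call or a small p, none changed sign in that comparison with a library left out. Genes named for other reasons did differ in sign between pairs. For HTT deletion in total RNA, Ift20 was at 1.14 in pair 1 and at -0.0130 and -0.197 in pairs 2 and 3. On ribosomes Cep290 was at 0.979 in pair 1 and at -0.154 and -0.145 in pairs 2 and 3. Depth limits Gli1 most.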
